A study of Homo sapiens with 12 samples.

Results

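The aldehyde dehydrogenases described here are 10 genes, ALDH1A1, ALDH1A3, ALDH1L2, ALDH2, ALDH3A1, ALDH3A2, ALDH3B1, ALDH4A1, ALDH6A1 and ALDH18A1. They were found by gene name in a table of 58735 genes, which holds 19 protein-coding ALDH genes in all. Each of the 10 passed the filter on low counts, and they were tested among 17829 genes. RNA-Seq was performed on A549, a human lung adenocarcinoma cell line, in 4 groups of 3 libraries: attached control, attached GFI1, floating control and floating GFI1. The floating cells had been kept in forced suspension for 48 hours, and the attached cells carry the label untreated. The GFI1 cells overexpress GFI1, a zinc finger transcriptional repressor of blood development, from a lentivirus in which an hPGK promoter drives the insert together with GFP, and GFP-positive cells were sorted. All cells come from 1 cell line grown in RPMI1640 medium with serum. The labels give the genotype of the other libraries as control and do not say whether those cells carried an empty vector. Nothing says that replicates were separate cultures, so the p-values below measure only the spread between these libraries, which may be technical.

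Most aldehyde dehydrogenases oxidise aldehydes to carboxylic acids with NAD or NADP as the electron acceptor. Some members remove reactive aldehydes that arise from alcohol, smoke or lipid peroxidation, some carry out a fixed step of amino acid, folate or lipid metabolism, and those of the ALDH1A group make retinoic acid from retinaldehyde. ALDH1A1 and ALDH3A1 are known for high levels in lung cancer cells, and aldehyde dehydrogenase activity is widely used to sort stem-like tumor cells.

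In the coordinates of the count table, on GRCh38, the gene of ALDH1A1 lies at chr9:72900662-73080442 on the minus strand and that of ALDH1A3 at chr15:100877714-100916626 on the plus strand. ALDH3A1, at chr17:19737984-19748943 on the minus strand, and ALDH3A2, at chr17:19648136-19677598 on the plus strand, are neighbours with 60.4 kb between them. ALDH3B1 lies at chr11:68008578-68029282 on the plus strand, ALDH2 at chr12:111766887-111817529 on the plus strand, and ALDH1L2 at chr12:105019784-105084577 on the minus strand. ALDH4A1 lies at chr1:18871430-18902781, ALDH6A1 at chr14:74056850-74084493 and ALDH18A1 at chr10:95605929-95656706, all on the minus strand.

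The stretches before the start sites of ALDH1A1, ALDH1A3 and ALDH6A1 are shown because with GFI1 the first fell, the second rose and the last was not called, and GFI1 binds sites with an AATC core. Each is the 250 bases before the RefSeq start on GRCh38.p14, written 5′ to 3′ on the strand of the gene, with AATC and its reverse complement GATT in capitals. The windows are chr9:72953054-72953303 for ALDH1A1, inside the longer gene of the count table, chr15:100879581-100879830 for ALDH1A3, also inside that gene, and chr14:74084454-74084703 for ALDH6A1.
ALDH1A1: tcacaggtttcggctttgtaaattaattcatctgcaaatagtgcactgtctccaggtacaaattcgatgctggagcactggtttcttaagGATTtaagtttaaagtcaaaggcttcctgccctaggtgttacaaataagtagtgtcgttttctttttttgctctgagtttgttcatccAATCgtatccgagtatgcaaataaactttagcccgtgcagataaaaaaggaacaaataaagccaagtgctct
ALDH1A3: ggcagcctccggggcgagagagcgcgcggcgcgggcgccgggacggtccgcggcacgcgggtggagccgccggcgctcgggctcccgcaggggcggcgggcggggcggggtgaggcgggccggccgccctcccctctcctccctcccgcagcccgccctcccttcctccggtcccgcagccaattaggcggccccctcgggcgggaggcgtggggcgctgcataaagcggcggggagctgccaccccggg
ALDH6A1: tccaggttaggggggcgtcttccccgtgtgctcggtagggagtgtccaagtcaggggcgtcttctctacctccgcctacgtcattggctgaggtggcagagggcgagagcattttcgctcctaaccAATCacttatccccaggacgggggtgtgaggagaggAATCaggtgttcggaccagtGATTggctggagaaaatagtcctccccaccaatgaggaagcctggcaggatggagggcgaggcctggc
The ALDH1A1 stretch holds 2 matches and a GC share of 38.4%, the ALDH1A3 stretch holds 0 matches at a GC share of 82.4%, and the ALDH6A1 stretch holds 3 matches at 59.6%. Of 27305 such stretches of RefSeq genes, 65.5% hold at least 1 match, and their median GC share is 58%. RefSeq windows were matched by symbol for 7 of the 10 genes. ALDH1L2, ALDH2 and ALDH3A1 had no window and were not searched for any motif. Over these 7 windows extended to 50 bases past the start, AATC, held by 69.6% of all windows of that length, was found on either strand for 4 genes, ALDH1A1, ALDH3B1, ALDH6A1 and ALDH18A1. The antioxidant response core TGACNNNGC, held by 13.6% of all windows, was found in none of these 7 windows. The hypoxia response core ACGTG, held by 21.6% of all windows, was found for ALDH3A2, ALDH3B1 and ALDH18A1. A match of so few letters is a description and not a binding site.

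Total counts ran from 17014188 to 20748677 per library, with 26273 to 28042 genes detected and 6.15% to 7.11% of counts from mitochondrial genes. GFI1 was at 0.238 to 0.711 CPM in the control libraries. The attached GFI1 libraries held 290, 294 and 286 CPM of it, and the floating ones held 545, 706 and 430 CPM and differed most among themselves. Over all genes, too, the floating GFI1 libraries were the least alike, with a chi-square per gene of 15.0 between replicates 2 and 3 and of 5.82 and 6.07 for the other pairs, against 2.19 to 4.36 in the other groups. Results below that change without one of them are given with that value. The test used below shares the spread of a gene over the 4 groups. SEs and p-values of contrasts with floating GFI1 may therefore be too small. CPM are counts scaled to a common library total, with TMM as a correction for library composition. The defining epithelial keratins KRT8 and KRT18 were abundant, at mean levels of 5769 and 2670 CPM in attached control cells. The summed level of 5 epithelial markers was 8306 to 8822 CPM in attached control, 2477 to 2563 in attached GFI1, 5296 to 5659 in floating control and 1894 to 2196 in floating GFI1 libraries, and 4 of the 5 fell with GFI1 in attached cells. The summed 5 markers of differentiated lung epithelium were at 2.23 to 6.45 CPM, with SCGB1A1 at 3 counts or fewer in every library. DCN, of the fibroblast list, and PTPRC and CD3E, of the blood cell list, were likewise at 3 counts or fewer in every library. Summed fibroblast markers were at 12.9 to 15.2, 9.83 to 10.8, 9.18 to 10.7 and 7.39 to 9.49 CPM in the attached control, attached GFI1, floating control and floating GFI1 libraries. Summed blood cell markers were at 5.26 to 8.21, 4.73 to 5.71, 11.1 to 14.7 and 6.87 to 7.51 CPM in the same order. The fibroblast sums do not stand for each marker of that list. Of its 3 tested markers, 1 rose and 1 fell with GFI1 in attached cells (highest log2 difference 3.99, lowest -1.03). When floating, 2 rose and 1 fell with GFI1 (highest 3.42, lowest -1.41). Endothelial markers summed to at most 0.723 CPM in control and to 3.65 to 5.62 CPM in GFI1 libraries, with KDR at 0 counts in all 6 of the latter. The part of these marker levels in the results below was not tested. In such bulk libraries, fewer cells with a transcript and less transcript per cell cannot be told apart.

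The first comparison asked how the ALDH genes differed between GFI1-expressing and control cells. In attached cells, 8 of the 10 changed, with 3 higher (ALDH1A3, ALDH3A1 and ALDH3A2) and 5 lower (ALDH1A1, ALDH2, ALDH4A1, ALDH3B1 and ALDH18A1). Here and below, a change is an adjusted p of 0.05 or less in the quasi-likelihood test of edgeR, adjusted over all tested genes by Benjamini-Hochberg. Most of the transcriptome changed in this comparison too, with 62.3% of the 17829 genes called, 29.5% higher and 32.8% lower. In floating cells, 7 of the 10 changed, 2 higher (ALDH1A3 and ALDH1L2) and the same 5 lower, against 60.4% of all genes, 29.3% higher and 31.1% lower. The median log2 fold change over the 10 genes was -0.16 in attached and -0.18 in floating cells, beside -0.01 and 0.01 over all genes. A log2 change of at least 1 in size was reached by ALDH1A1, ALDH2 and ALDH1A3 in both states, 3 of the 10 genes beside 18.2% of all genes in attached and 17.3% in floating cells.

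The second comparison asked how the genes differed between floating and attached cells. In control cells, 6 of the 10 changed with suspension, 3 higher (ALDH3A1, ALDH2 and ALDH6A1) and 3 lower (ALDH1A3, ALDH4A1 and ALDH1L2), against 40.1% of all genes, 19.6% higher and 20.5% lower. In GFI1 cells, 5 of the 10 changed, 2 higher (ALDH2 and ALDH6A1) and 3 lower (ALDH1A1, ALDH1A3 and ALDH3A2), against 31.3% of all genes, 15.0% higher and 16.3% lower. The medians over the 10 genes were -0.04 and -0.07, beside 0.01 and 0.00 over all genes. The third comparison, the interaction, asked whether the suspension effect differed between GFI1 and control cells. It was called for 5 of the 10 genes (ALDH1A1, ALDH1A3, ALDH2, ALDH3A1 and ALDH3A2), beside 10.8% of all genes, with 1 of the 10 higher and 4 lower against 4.76% and 6.01% of all genes. None of the 10 reached a log2 change of 1 in size with suspension, where 5.10% of all genes did in control and 2.80% in GFI1 cells, or in the interaction, where 1.35% did. The comparisons share libraries, so their counts are not independent of each other.

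**Figure D1:**
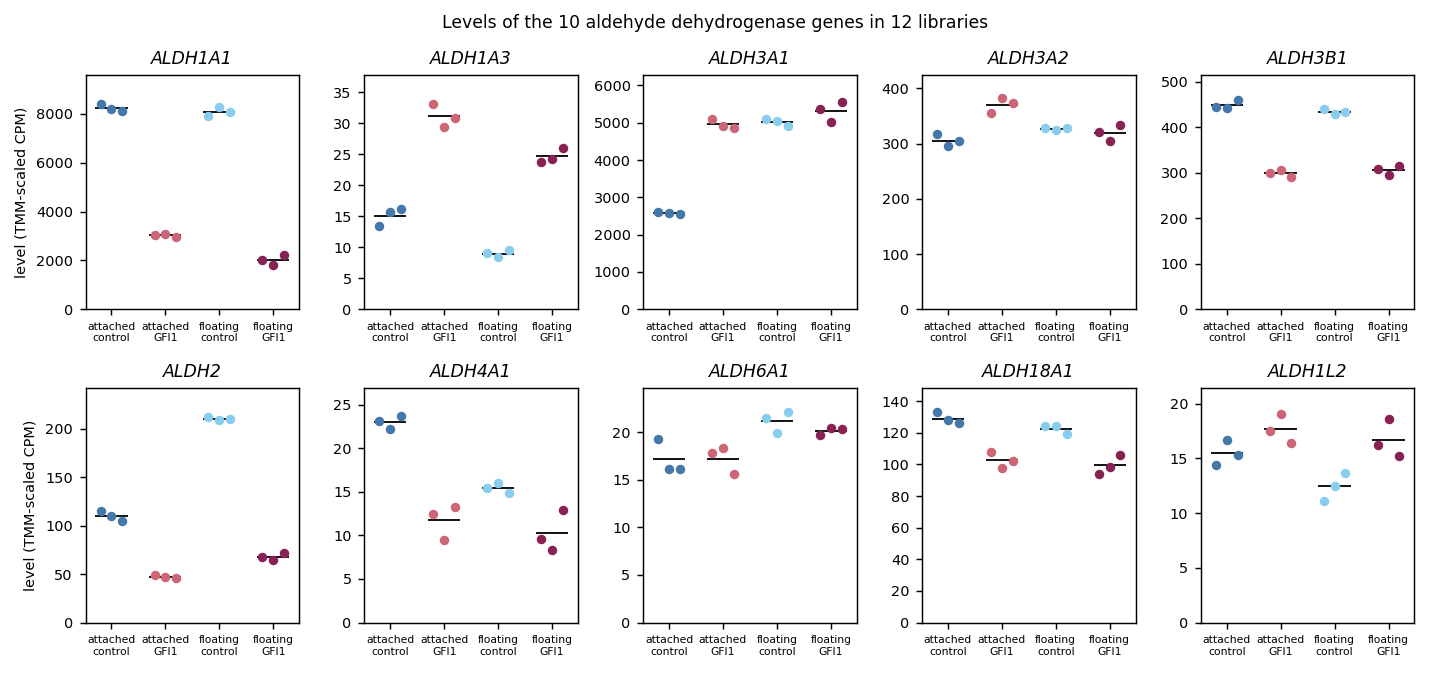
Level of each of the 10 genes in the 12 libraries, in TMM-scaled CPM on axes that start at 0, with 3 points per group for the libraries and a line at their mean. ALDH1A1 lies between 8115 and 8410 CPM in attached control and between 1807 and 2227 CPM in floating GFI1 libraries, and ALDH3A1 is low only in the attached control group.

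ALDH1A1, a cytosolic retinaldehyde dehydrogenase, ranked 3 in abundance among the genes of the table by CPM in attached control cells, and 12 per length (TPM). Its level was 8410, 8209 and 8115 CPM in the attached control libraries and 7902, 8293 and 8067 CPM in the floating control libraries. These groups overlapped. In GFI1 cells it was 3042, 3075 and 2956 CPM when attached and 2016, 1807 and 2227 CPM when floating, and no GFI1 library came near a control library. ALDH1A1 was therefore 2.73-fold lower with GFI1 in attached cells (log2 fold change -1.45 ± 0.05 SE, adjusted p = 6.50e-18, edgeR) and 4.01-fold lower in floating cells (-2.00 ± 0.05, adjusted p = 1.15e-20). In an edgeR fit of the 2 floating groups alone, the latter difference was -2.00 ± 0.07 (adjusted p = 4.45e-13). Suspension gave a log2 difference of -0.03 in control cells, with a 95% interval from -0.14 to 0.08. In GFI1 cells ALDH1A1 fell with suspension (-0.58 ± 0.05, adjusted p = 3.50e-09), and the suspension effects differed by -0.56 ± 0.07 (adjusted p = 9.62e-06). GFI1 itself was higher in floating than in attached GFI1 cells by 0.95 ± 0.10 on the log2 scale, and its part in this difference was not tested.

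ALDH1A3, a second retinaldehyde dehydrogenase, moved the other way at a far lower level. It was at 13.5, 15.7 and 16.1 CPM in attached control libraries and at 33.2, 29.4 and 30.8 CPM in attached GFI1 libraries. In suspension it was at 9.01, 8.37 and 9.57 CPM in control and at 23.8, 24.3 and 26.0 CPM in GFI1 libraries. None of the 4 groups overlapped, with both GFI1 groups above both control groups and floating below attached within each genotype. ALDH1A3 rose with GFI1 in attached (1.04 ± 0.08, adjusted p = 2.20e-11) and floating cells (1.46 ± 0.09, adjusted p = 2.18e-13). It fell with suspension in control (-0.75 ± 0.09, adjusted p = 4.55e-07) and GFI1 cells (-0.33 ± 0.07, adjusted p = 0.00116). The difference of the suspension effects, 0.42 ± 0.12, passed narrowly (adjusted p = 0.0240). That call was lost in DESeq2 (adjusted p = 0.0555) and when any 1 of 5 libraries was left out, namely replicates 2 and 3 of attached control (0.39 and 0.38), replicate 2 of attached GFI1 (0.39), and replicates 1 and 2 of floating control (0.42 and 0.37), with adjusted p from 0.0501 to 0.0817. ALDH1A3 overlaps an antisense gene, AC015712.2, which had 1246 counts over the 12 libraries beside 4495 for ALDH1A3. The antisense gene was also higher with GFI1 in attached (0.49 ± 0.15) and floating cells (0.77 ± 0.16). The strand setting of the counting is not stated, so reads of this pair cannot be told apart.

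ALDH3A1 oxidises aromatic and medium-chain aldehydes in the cytosol and is also a crystallin of the cornea. Its level was 2611, 2591 and 2548 CPM in attached control libraries. It was 5096, 4906 and 4865 CPM in attached GFI1, 5089, 5043 and 4920 CPM in floating control and 5366, 5016 and 5568 CPM in floating GFI1 libraries. The attached control group lay apart, while the floating control libraries overlapped with both GFI1 groups. ALDH3A1 rose with GFI1 in attached cells (0.94 ± 0.04, adjusted p = 4.63e-16) and with suspension in control cells (0.96 ± 0.04, adjusted p = 3.90e-15), by near equal amounts. In floating cells the GFI1 difference was 0.08 (95% interval -0.00 to 0.17, adjusted p = 0.0896), and in GFI1 cells the suspension difference was 0.10 (0.01 to 0.19, adjusted p = 0.0694). These small differences crossed the threshold under some settings, and both did so without replicate 2 of floating GFI1 (0.13 in each, adjusted p = 0.0112 and 0.0280). The interaction was the largest of the 10 genes in size (-0.86 ± 0.06, adjusted p = 3.96e-10). An antisense gene within ALDH3A1, ENSG00000264785, had 2201 counts beside 986522 for ALDH3A1. Its differences were 1.05, 0.05, 1.26 and 0.26 for GFI1 in attached cells, GFI1 in floating cells, suspension in control cells and suspension in GFI1 cells. With the strand setting not stated, these counts cannot be told apart from reads of ALDH3A1.

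ALDH3A2, the neighbour of ALDH3A1, encodes the fatty aldehyde dehydrogenase of the endoplasmic reticulum, which is deficient in Sjögren-Larsson syndrome. It was at 317, 295 and 304 CPM in attached control, 356, 382 and 373 in attached GFI1, 328, 324 and 329 in floating control and 321, 305 and 334 in floating GFI1 libraries. The attached GFI1 group lay above the other three, which were close to each other. ALDH3A2 rose with GFI1 in attached cells (0.28 ± 0.04, adjusted p = 4.94e-06) and fell with suspension in GFI1 cells (-0.21 ± 0.04, adjusted p = 0.000475), and its interaction was -0.31 ± 0.06 (adjusted p = 0.00118). The GFI1 difference in floating cells was -0.03 (95% interval -0.12 to 0.06). Suspension of control cells gave 0.10 (0.01 to 0.19, adjusted p = 0.0749), or 0.12 without replicate 1 of attached control (adjusted p = 0.0465).

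ALDH3B1, a membrane-associated enzyme that oxidises aldehydes from lipid peroxidation, was called with GFI1 in both states and with suspension in neither genotype. Its level was 445, 441 and 460 CPM in attached control and 439, 428 and 433 CPM in floating control libraries. It was 300, 306 and 290 CPM in attached GFI1 and 307, 295 and 314 CPM in floating GFI1 libraries, below every control library. With GFI1 it was lower in attached cells (-0.59 ± 0.04, adjusted p = 2.96e-12), and the difference was of like size in suspension (-0.50 ± 0.04, adjusted p = 5.75e-11). The suspension differences were -0.05 (95% interval -0.13 to 0.03) in control and 0.03 (-0.05 to 0.12) in GFI1 cells.

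ALDH2, the mitochondrial enzyme that clears acetaldehyde formed from ethanol, changed in all 5 tests. It was at 115, 110 and 105 CPM in attached control and at 212, 209 and 210 CPM in floating control libraries. With GFI1 it was at 49.2, 46.6 and 46.2 CPM in attached and at 67.2, 64.3 and 71.3 CPM in floating libraries. The 4 groups did not overlap, and floating control cells held the most. ALDH2 fell with GFI1 in attached (-1.22 ± 0.05, adjusted p = 4.26e-17) and floating cells (-1.64 ± 0.05, adjusted p = 3.22e-20). It rose with suspension in control cells (0.93 ± 0.05, adjusted p = 1.89e-14) and less in GFI1 cells (0.52 ± 0.05, adjusted p = 1.39e-08), a difference of -0.42 ± 0.07 (adjusted p = 0.000118).

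**Figure D2:**
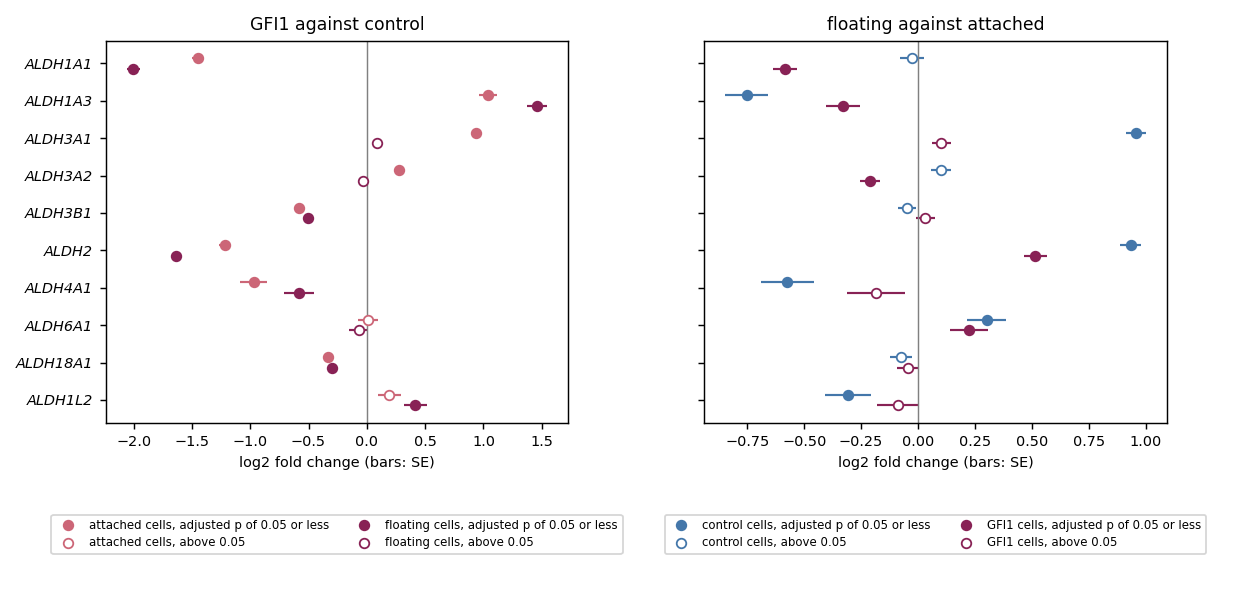
Log2 fold changes of the 10 genes with bars for 1 SE, for GFI1 against control in attached and floating cells on the left and for floating against attached in control and GFI1 cells on the right, where filled points have an adjusted p of 0.05 or less. ALDH3A1 rises by 0.94 with GFI1 in attached cells and by 0.96 with suspension of control cells, while the other 2 of its points lie at 0.08 and 0.10.

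The genes ALDH4A1 and ALDH18A1 act on opposite sides of proline metabolism. ALDH4A1 oxidises the semialdehyde of glutamate in mitochondria during proline breakdown, and ALDH18A1 makes pyrroline-5-carboxylate for proline synthesis. ALDH4A1 was at 23.1, 22.2 and 23.7 CPM in attached control, 12.5, 9.51 and 13.3 in attached GFI1, 15.4, 16.0 and 14.9 in floating control and 9.54, 8.33 and 12.9 in floating GFI1 libraries. The GFI1 groups overlapped with each other and lay below both control groups. It fell with GFI1 in attached (-0.97 ± 0.12, adjusted p = 8.36e-08) and floating cells (-0.58 ± 0.13, adjusted p = 0.000285) and with suspension in control cells (-0.57 ± 0.12, adjusted p = 0.000248). In GFI1 cells the suspension difference was -0.19 ± 0.13 (adjusted p = 0.305), and it passed at -0.39 without replicate 3 of floating GFI1 (adjusted p = 0.0143). It was -0.32 without replicate 2 and -0.08 without replicate 3 of attached GFI1, and -0.07 without replicate 2 of floating GFI1. The interaction, 0.39 ± 0.17 (adjusted p = 0.170), passed at 0.50 without replicate 2 of floating GFI1 (adjusted p = 0.0343) and was 0.19 without replicate 3 (adjusted p = 0.533) and 0.26 without replicate 2 of attached GFI1.

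ALDH18A1 was at 133, 128 and 126 CPM in attached control and 124, 124 and 119 in floating control libraries, and at 108, 97.7 and 102 in attached GFI1 and 94.2, 98.4 and 106 in floating GFI1 libraries. The 6 GFI1 libraries were below the 6 control libraries. ALDH18A1 fell with GFI1 in both attached (-0.33 ± 0.05, adjusted p = 1.79e-06) and floating cells (-0.30 ± 0.05, adjusted p = 9.64e-06). Suspension gave -0.08 (95% interval -0.18 to 0.02) in control and -0.04 (-0.14 to 0.06) in GFI1 cells.

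ALDH6A1, the methylmalonate semialdehyde dehydrogenase of valine breakdown, was called with suspension in both genotypes and with GFI1 in neither state. It was at 19.3, 16.1 and 16.1 CPM in attached control, 17.8, 18.3 and 15.6 in attached GFI1, 21.5, 19.9 and 22.1 in floating control and 19.7, 20.4 and 20.3 in floating GFI1 libraries. All floating libraries lay above all attached ones. It rose with suspension in control cells (0.30 ± 0.09, adjusted p = 0.00604) and in GFI1 cells (0.23 ± 0.08, adjusted p = 0.0420). The call in GFI1 cells was lost when any 1 of 5 libraries was left out. The values were 0.25 without replicate 1 and 0.16 without replicate 3 of attached GFI1, and 0.23, 0.20 and 0.22 without replicates 1, 2 and 3 of floating GFI1, with adjusted p from 0.0568 to 0.215. The GFI1 differences were 0.01 (95% interval -0.17 to 0.18) in attached and -0.07 (-0.24 to 0.10) in floating cells. ALDH6A1 overlaps BBOF1 on the other strand, which had 788 counts over the 12 libraries beside 4144 for ALDH6A1. The strand setting of the counting is not stated, so reads of this pair cannot be told apart.

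ALDH1L2 is the mitochondrial dehydrogenase of 10-formyltetrahydrofolate. It was at 14.4, 16.7 and 15.3 CPM in attached control, 17.5, 19.1 and 16.4 in attached GFI1, 11.1, 12.5 and 13.7 in floating control and 16.2, 18.6 and 15.2 in floating GFI1 libraries. The floating control group was below all others. ALDH1L2 was higher with GFI1 in floating cells (0.41 ± 0.10, adjusted p = 0.000843), and the difference in attached cells was 0.19 ± 0.10 (adjusted p = 0.0800). It fell with suspension in control cells (-0.31 ± 0.10, adjusted p = 0.0163), a call that was lost without replicate 2 of attached control (-0.25, adjusted p = 0.0911) or replicate 1 of floating control (-0.24, adjusted p = 0.102). The suspension difference in GFI1 cells was -0.09 (95% interval -0.28 to 0.10). ALDH1L2 overlaps C12orf45 on the other strand, which had 6216 counts beside 3438. That gene was lower with GFI1 (-0.59 ± 0.06 in attached and -0.44 ± 0.06 in floating cells). Reads of this pair, too, cannot be told apart, because the strand setting of the counting is not stated. The part of the overlap in the ALDH1L2 values was not tested.

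The levels of different genes were compared per length, in TPM, with the lengths given in the table. The 10 genes summed to 11526, 11433 and 11428 TPM in attached control, 8787, 8716 and 8635 in attached GFI1, 13252, 13480 and 13529 in floating control and 7942, 7266 and 8288 in floating GFI1 libraries. The groups did not overlap. ALDH1A1 and ALDH3A1 made up nearly all of each sum, and the other 8 genes together held a mean of 501 to 564 TPM in the 4 groups. ALDH1A1 was 77.6% ± 0.128 (SD, n = 3) of the sum in attached control, 42.9% ± 0.557 in attached GFI1, 66.0% ± 0.716 in floating control and 32.0% ± 1.17 in floating GFI1 libraries. ALDH3A1 was 17.7% ± 0.125, 51.1% ± 0.604, 29.8% ± 0.644 and 61.6% ± 1.00 in the same order. The ratio of ALDH1A1 to ALDH3A1 in TPM was 4.36 to 4.43 in attached control and 2.14 to 2.26 in floating control libraries. It was 0.821 to 0.862 in attached GFI1 and 0.495 to 0.550 in floating GFI1 libraries, so ALDH3A1 was the more abundant of the pair in each GFI1 library and ALDH1A1 in each control library.

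**Figure D3:**
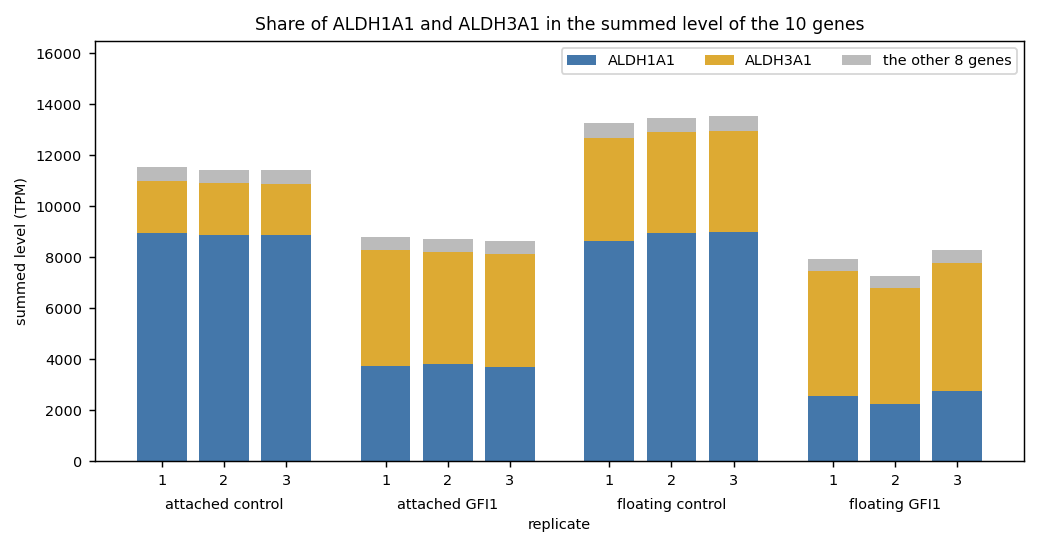
Summed level of the 10 genes in TPM, 1 bar per library from 0, divided into ALDH1A1, ALDH3A1 and the other 8 genes. ALDH1A1 holds 77.6% of the sum in attached control and 32.0% in floating GFI1 libraries, and the other 8 genes stay between 501 and 564 TPM on average.

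Of the 9 other protein-coding ALDH genes in the table, 7 passed the filter. ALDH1L1 and ALDH3B2 had at most 3 counts and 1 count per library. With GFI1, 2 of the 7 rose and 3 fell in both attached and floating cells, near the 62.3% and 60.4% of all genes called. With suspension, 0 rose and 2 fell in control cells and 0 rose and 3 fell in GFI1 cells, against 40.1% and 31.3%. ALDH7A1, which acts in lysine breakdown, fell by 1.50 ± 0.05 in attached cells (adjusted p = 6.25e-19) and by 1.53 ± 0.05 in floating cells (adjusted p = 5.05e-19), close to ALDH1A1 in size in attached cells. ALDH1B1, a mitochondrial relative of ALDH2, fell with GFI1 (-1.07 ± 0.05 in attached and -0.77 ± 0.05 in floating cells) and, unlike ALDH2, also with suspension (-0.61 ± 0.05 in control and -0.32 ± 0.05 in GFI1 cells). ALDH5A1, the succinate semialdehyde dehydrogenase, rose with GFI1 by 0.51 ± 0.06 and 0.62 ± 0.06. ALDH1A2, the third retinaldehyde dehydrogenase, had only 2 to 35 counts per library and was higher with GFI1 by 1.36 ± 0.40 and 2.77 ± 0.43. ALDH9A1 was lower by 0.18 and 0.22. Among these 7 the interaction was called for ALDH1B1 only (0.30 ± 0.07, adjusted p = 0.00852).

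**Figure D4:**
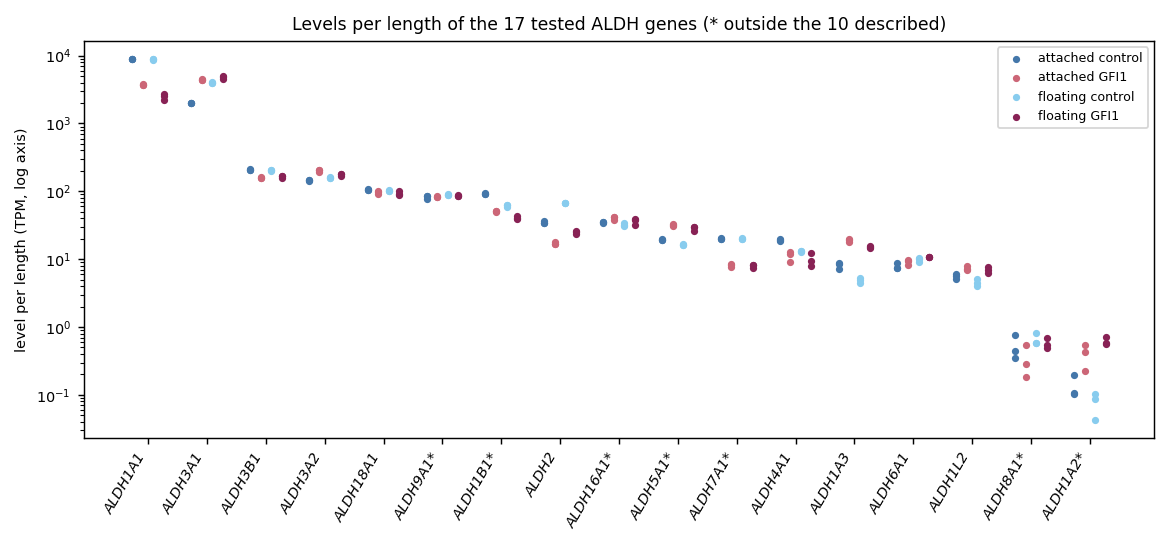
Levels per length of the 17 ALDH genes that passed the filter, in TPM on a log axis, ordered by their mean, with 1 point per library colored by group. ALDH1A1 and ALDH3A1 lie above all others in every library, and the rest of the family is at 208 TPM or less on average in attached control cells.

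Genes of the pathways around these enzymes were counted from lists. These counts stand beside the shares of all genes called, which were 29.5% higher and 32.8% lower with GFI1 in attached cells and 29.3% and 31.1% in floating cells. With suspension they were 19.6% higher and 20.5% lower in control cells and 15.0% and 16.3% in GFI1 cells. Of 16 tested genes of retinoid metabolism, 8 rose and 7 fell with GFI1 in attached cells, and 8 rose and 5 fell in floating cells (medians 0.21 and 0.24). With suspension, 10 rose and 1 fell in control cells, and 9 rose and 1 fell in GFI1 cells (median 0.23 in each). CYP26B1, which degrades retinoic acid, was higher with GFI1 by 2.64 ± 0.06 and 2.41 ± 0.06. FABP5, which carries fatty acids and retinoic acid, was lower with GFI1 (-1.05 ± 0.08 and -1.31 ± 0.08) and with suspension (-0.44 ± 0.07 and -0.69 ± 0.09). STRA6, the receptor for retinol binding protein, rose with suspension of control cells (0.67 ± 0.05), and DHRS3, which reduces retinaldehyde to retinol, with suspension of GFI1 cells (1.05 ± 0.09).

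Among 15 tested aldehyde and alcohol oxidoreductases outside the ALDH family, 2 rose and 10 fell with GFI1 in attached cells, and 3 rose and 10 fell in floating cells (medians -0.28 and -0.51). AKR1B10, an aldo-keto reductase of retinaldehyde and other aldehydes, was lower by 2.68 ± 0.05 and 3.16 ± 0.06. AKR1C1 was higher by 1.08 ± 0.05 and 0.61 ± 0.05, a value that is uncertain because AKR1C2 is nearly identical in sequence. With suspension, 6 rose and 3 fell in control cells, and 1 rose and 3 fell in GFI1 cells. AKR1C1 was the gene with the lowest p among those that rose (0.78 ± 0.05 and 0.31 ± 0.05), and AKR1B1, aldose reductase, among those that fell (-0.52 ± 0.05 and -0.43 ± 0.05).

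Of 22 targets of NRF2, the regulator of oxidative stress genes, 7 rose and 9 fell with GFI1 in attached cells, and 5 rose and 12 fell in floating cells (medians -0.07 and -0.22). The attached counts are close to the shares of all genes. The extremes by p were OSGIN1 (0.84 ± 0.05, attached), SRXN1 (0.92 ± 0.08, floating) and the glutathione peroxidase GPX2 (-2.13 ± 0.08 and -2.31 ± 0.07). GPX2 rose with suspension in both control (1.07 ± 0.07) and GFI1 cells (0.90 ± 0.08). With suspension, 7 of these targets rose and 3 fell in control cells, TKT by 0.13 ± 0.04, while 5 rose and 9 fell in GFI1 cells, TXNRD1 by 0.45 ± 0.05. The interaction was called for 9 of the 22, all lower, beside 6.01% of all genes lower. For the other lists, calls of the interaction in either direction stand beside 10.8% of all genes. It was called in 1 of 7 further ALDH genes, 2 of 16 retinoid genes and 3 of 15 oxidoreductases. The counts were 1 of 9 for proline and glutamate genes, 3 of 15 for folate genes and 3 of 21 for branched-chain genes.

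Of 9 genes of proline and glutamate metabolism, 0 rose and 7 fell in attached cells, and 1 rose and 6 fell in floating cells (medians -0.57 and -0.29). Among them, glutamate dehydrogenase GLUD1 fell in floating cells (-0.75 ± 0.05). With suspension, 3 rose and 3 fell in control cells, with glutamine synthetase GLUL at 1.53 ± 0.29. In GFI1 cells 2 rose and 2 fell, with OAT at 0.14 ± 0.05 and PYCR3 at -0.61 ± 0.08. Of 15 folate genes, 2 rose and 11 fell with GFI1 in attached cells, and 1 rose and 10 fell in floating cells (median -0.48 in each). Mitochondrial serine hydroxymethyltransferase SHMT2 was lower by 1.01 ± 0.04 and 1.07 ± 0.04. With suspension, 1 folate gene rose and 9 fell in control cells, and 1 rose and 7 fell in GFI1 cells.

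Of 21 genes of branched-chain amino acid breakdown, 4 rose and 10 fell with GFI1 in attached cells, and 2 rose and 10 fell in floating cells (medians -0.16 and -0.13). BCAT2, the mitochondrial aminotransferase, was lower by 0.94 ± 0.05 and 1.22 ± 0.05, and AUH, of the leucine branch, was higher by 0.97 ± 0.06 and 0.48 ± 0.06. With suspension, 5 rose and 3 fell in control cells, including AUH at 0.57 ± 0.06 and BCAT1 at -0.80 ± 0.14, and 2 rose and 7 fell in GFI1 cells, including ACAD8 at 0.20 ± 0.07 and BCAT2 at -0.25 ± 0.05.

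**Figure D5:**
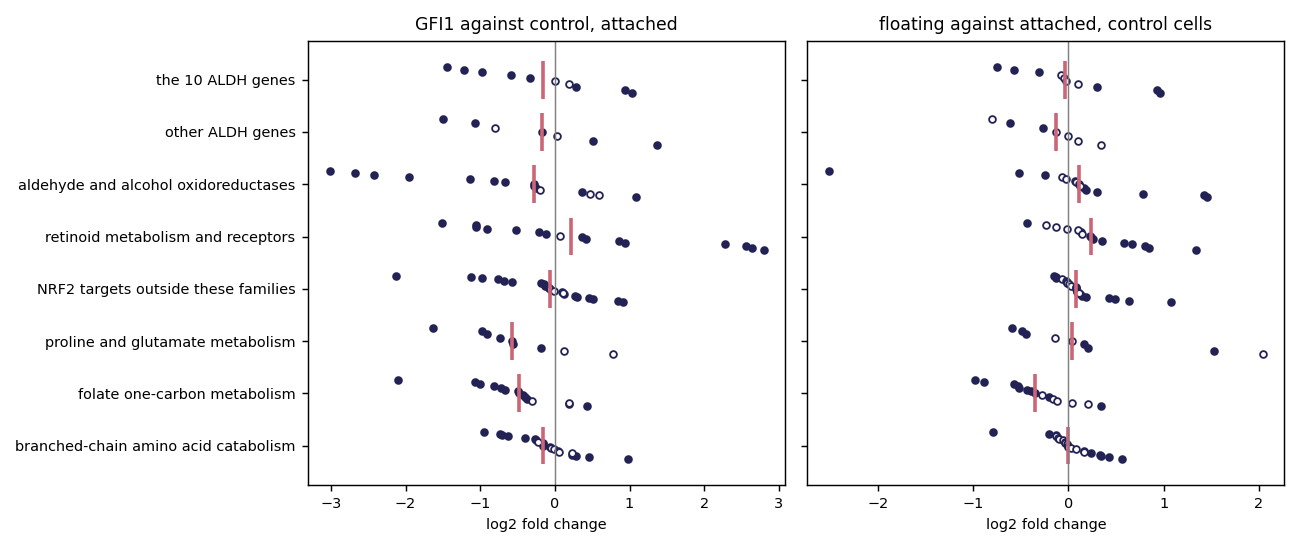
Log2 fold changes of the tested genes of each list, for GFI1 against control in attached cells on the left and floating against attached control cells on the right, where filled points have an adjusted p of 0.05 or less and red lines mark the median of a list. The medians of the 10 ALDH genes are -0.16 and -0.04, and those of the folate list are -0.48 and -0.35.

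Genes with the levels most like those of 3 members were ranked by Pearson's r of log2 CPM over the 12 libraries, among 11853 protein-coding genes. These libraries share 4 group means, so high values are common, and 933 genes exceeded 0.95 with ALDH1A1, 167 with ALDH1A3 and 43 with ALDH3A1. Most like ALDH1A1 were TMEM97, NRCAM and STAMBPL1 (r = 0.996 in each case). Most like ALDH1A3 were MAP1B (0.993), DAB2 (0.992) and PLXNA1 (0.991). Most like ALDH3A1 were DUSP4 (0.990), CEACAM1 (0.989) and TXNIP (0.984). TXNIP was at a mean of 1.57 CPM in attached control and at 7.07, 7.64 and 7.24 CPM in attached GFI1, floating control and floating GFI1 libraries, low in attached control and close to each other in the other 3 groups, as for ALDH3A1.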

How the data were processed

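The deposited values were raw counts of fragments per gene that the authors made from poly-A selected RNA sequenced on an Illumina NovaSeq system. The study's methods name Hisat2 and featureCounts, while the submitters' processing notes name Bowtie2, HTSeq and hg38; the annotation release and strand setting are not given in the sources used here. Groups and replicate numbers came from the sample labels.

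Genes were kept by filterByExpr (minimum count 10, minimum total 15), which left 17829. Counts were scaled by TMM and fitted in 1 edgeR 4.0.16 quasi-likelihood model with 4 group means over 12 libraries (R 4.3.3), with 5 contrasts. P-values were adjusted within each contrast by Benjamini-Hochberg, and a call was an adjusted p of 0.05 or less. SE is the log2 fold change divided by the square root of F, and intervals are 95%. TPM used the table's gene lengths. No column of values was left unused. Total counts were 17014188 to 20748677 per library, and replicate pairs differed by more than counting noise (chi-square per gene of 2.19 to 15.0), so the spread between libraries as well as depth enters the errors. Promoters came from RefSeq on GRCh38.p14, and 99.1% of gene identifiers matched GENCODE v44, which gave gene types and overlaps. A protein sequence comparison that had been planned was not run.

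Named genes are the 10 members, the other ALDH genes, and, from each pathway list and contrast, the gene with the smallest adjusted p among those called higher and among those called lower; some of these are not reported here. To these were added the introduced gene, markers, genes that overlap a member, and the 3 protein-coding genes most correlated with ALDH1A1, ALDH1A3 and ALDH3A1 (mean log2 CPM of at least 1). The members and lists were chosen with earlier results of these data known. Alternatives were other scalings (RLE, upper quartile, library size), filters, DESeq2 1.42.0, fits on 2 groups, a replicate block, a fold change minimum, reference exon lengths and leaving out each library.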

Additional observations from a re-analysis of the deposited data

Results flagged for a closer look

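For 5 of the 10 ALDH genes the effect of suspension differed between GFI1 and control cells by the interaction term of the edgeR model, beside 10.8% of all genes, and for this they are listed here, each as the log2 effect in GFI1 cells minus that in control cells. ALDH3A1 had -0.86 ± 0.06 SE (adjusted p = 3.96e-10), with an increase of 0.96 in control and a difference of 0.10 in GFI1 cells. ALDH1A1 had -0.56 ± 0.07 (adjusted p = 9.62e-06), with -0.03 in control and -0.58 in GFI1 cells. ALDH2 had -0.42 ± 0.07 (adjusted p = 0.000118), with increases of 0.93 and 0.52. ALDH3A2 had -0.31 ± 0.06 (adjusted p = 0.00118), with 0.10 and -0.21. ALDH1A3 had 0.42 ± 0.12 (adjusted p = 0.0240), with -0.75 and -0.33, and its call depended on single libraries. Single outlying libraries were not tested for in these groups of 3.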

How the results depend on the processing

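Over the 10 genes and 5 contrasts, scaling by RLE or adding the replicate block changed no call, and 8, 7, 6, 5 and 5 genes were called under the block as in the reported model. To look for pairing by replicate number, deviations of log2 CPM from the group means were correlated between libraries of different groups. Those of same-numbered libraries correlated at -0.03 to 0.03, so no pairing was seen. Counting noise enters these deviations, so values near 0 cannot exclude pairing. Requiring a log2 change of 1 as well left 3 called genes with GFI1 in attached cells, 3 in floating cells and 0 in each of the other 3 contrasts, beside 3247, 3078, 909, 500 and 241 of all 17829 genes. Without replicate 2 of floating GFI1, 8, 5 and 6 members were called for GFI1 in floating cells, suspension of GFI1 cells and the interaction, and without replicate 3, 7, 5 and 5. Scaling by library size only moved the median of all genes to 0.140 in both GFI1 contrasts and the share of calls that were higher from 47.4% to 61.5% (attached, 4 members higher and 5 lower) and from 48.5% to 61.4% (floating, 3 higher and 5 lower). Small differences changed sign. ALDH3A2 with GFI1 in floating cells was 0.01 under upper quartile scaling, 0.10 under library size only and 0.01 without replicate 2 of floating GFI1 (leave-outs -0.07 to 0.01). ALDH6A1 was 0.06 in that contrast under library size only, and in attached cells -0.01 without a filter and below 0 in 4 leave-outs (range -0.04 to 0.09, with -0.01 without replicate 1 of attached GFI1). The interaction of ALDH18A1 was -0.01 without replicate 3 of floating GFI1 (leave-outs -0.01 to 0.08). Reference exon lengths gave sums of 11735, 8867 and 13742 TPM, and CPM summed without length 11892, 8876 and 14255, in attached control, attached GFI1 and floating control cells, all with the same order of groups. Calls near the threshold moved with the setting. ALDH1L2 with GFI1 in attached cells was called under upper quartile scaling, library size only, the stricter filter and the 2-group fit (0.22 to 0.34), ALDH3A1 with GFI1 in floating cells under the first 3 of these (0.10 to 0.21), and ALDH3A2 with suspension of control cells under all 4 (0.10 to 0.12). ALDH3A1 with suspension of GFI1 cells was called under upper quartile scaling, without a filter and in DESeq2 (0.10 to 0.12), and ALDH6A1 in that contrast was lost without a filter, in the 2-group fit and in DESeq2 (adjusted p = 0.0503, 0.0568 and 0.103). The causes were not tested. At 8.33 to 33.2 CPM, ALDH1A3, ALDH1L2, ALDH4A1 and ALDH6A1 have SEs of 0.07 to 0.13 in the pairwise contrasts, and differences of that size were not detectable for them at this depth and spread.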

Other observations

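The 3 floating GFI1 libraries differed in GFI1 itself, at 545, 706 and 430 CPM. In the same order, ALDH1A1 was at 2016, 1807 and 2227 CPM, ALDH2 at 67.2, 64.3 and 71.3 CPM and ALDH4A1 at 9.54, 8.33 and 12.9 CPM, each lowest where GFI1 was highest and highest where GFI1 was lowest. This reversed order was seen for 6 of the 10 genes, the others being ALDH3A1, ALDH3A2 and ALDH3B1, and it includes genes that rose with GFI1 in attached cells. With 3 libraries it is a description only, and 8 of the 10 genes were highest in the library with the least GFI1. The share of all genes with either order was not counted. Replicates 2 and 3 also differed over all genes, with a chi-square per gene of 15.0, so neither count can be read as particular to the ALDH genes. In attached GFI1 libraries GFI1 varied little, at 286 to 294 CPM.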
